A study of Mus musculus with 12 samples.

Results

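The comparison described here set E14 mouse embryonic stem (ES) cells with a short hairpin RNA (shRNA) against Jmjd1a beside E14 cells with an shRNA against Luc, firefly luciferase, which mouse cells lack. It used 6 of the 12 arrays of the series: the 3 Jmjd1a RNAi cultures and Luc RNAi replicates 1 to 3, with each RNA sample hybridised to its own one-colour Illumina array. Both hairpins were carried by the plasmid pSUPER puro, 2 µg of which went into cells on 60 mm plates. The cells of both groups grew without feeder cells on gelatin in medium with serum. The Luc cultures received 1000 units/ml of LIF, the cytokine that keeps mouse ES cells undifferentiated, and puromycin at 1.0 µg/ml for 4 days, while LIF and the dose and time of puromycin for the Jmjd1a cultures are not given in the sources used here. E14 is an established mouse ES cell line, and the labels name 1 hairpin per gene, so the knockdown rests on a single hairpin sequence. The samples are called biological replicates by their submitters, with no word on separate days or transfections, so p-values measure the spread between these cultures. Luc replicates 4 to 6 were not used as controls here. On the probes tested below, their log2 intensities correlated with those of Luc replicates 1 to 3 at r = 0.9598 to 0.9622, against 0.9946 to 0.9958 among replicates 1 to 3.

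Jmjd1a, whose current symbol is Kdm3a, encodes a Jumonji-domain enzyme that removes methyl groups from mono- and dimethylated lysine 9 of histone H3 (H3K9), a mark of silenced chromatin. Demethylases of this family need iron and oxoglutarate. Loss of the mark at promoters and gene bodies is associated with transcription, and the enzyme is known for its roles in ES cells, in male germ cells and in energy metabolism. Mouse ES cells in serum and LIF express a network of naive pluripotency factors. When they leave that state they pass through a formative, epiblast-like phase with its own transcripts.

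The targeted transcript was lower on every Jmjd1a array. Kdm3a probe 103780008 read an intensity of 2208, 1959 and 2267 on Luc arrays 1, 2 and 3 and 785, 793 and 851 on Jmjd1a arrays 1, 2 and 3. The groups did not overlap, and the log2 change of -1.40 ± 0.08 (SE) brought the signal to 37.8% of that in Luc (adjusted p = 5.84e-05 by limma). The second probe, 101980097, read 756, 739.7 and 753 on the Luc arrays and 258, 237 and 223 on the Jmjd1a arrays, a change of -1.65 ± 0.07 that left 31.9% (adjusted p = 2.81e-05). A two-sided exact permutation test gave p = 0.1 for both probes, and with 20 ways to split 3 against 3 arrays no smaller value is possible. A further probe read at background in both groups and was not tested.

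Intensities under 32 were set to 32, a floor of 5 on the log2 scale, and tests were run on the 14040 of 46133 probes that exceeded it on 3 or more of the 6 arrays. At a Benjamini-Hochberg adjusted p under 0.05, limma called 3571 of them (25.4%), 1873 higher (13.3%) and 1698 lower (12.1%). With 1 probe per gene, 1180 of 8363 genes rose (14.1%) and 1116 fell (13.3%). Changes of at least 2-fold were seen in 112 probes that rose (0.798%) and 121 that fell (0.862%), or in 77 genes (0.921%) and 84 genes (1.00%). The median absolute change of the called probes was 0.42 on the log2 scale, and the median change of all tested probes was 0.00. On 6104 tested probes (43.5%) the 2 groups of arrays did not overlap, with Jmjd1a above Luc on 23.3% and below it on 20.2%, and the groups were separate on 3570 of the 3571 called probes. Mean intensity per array was 236 to 243, with 13591 to 14012 probes above the floor, and precision is limited by the small number of arrays.

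**Figure D1:**
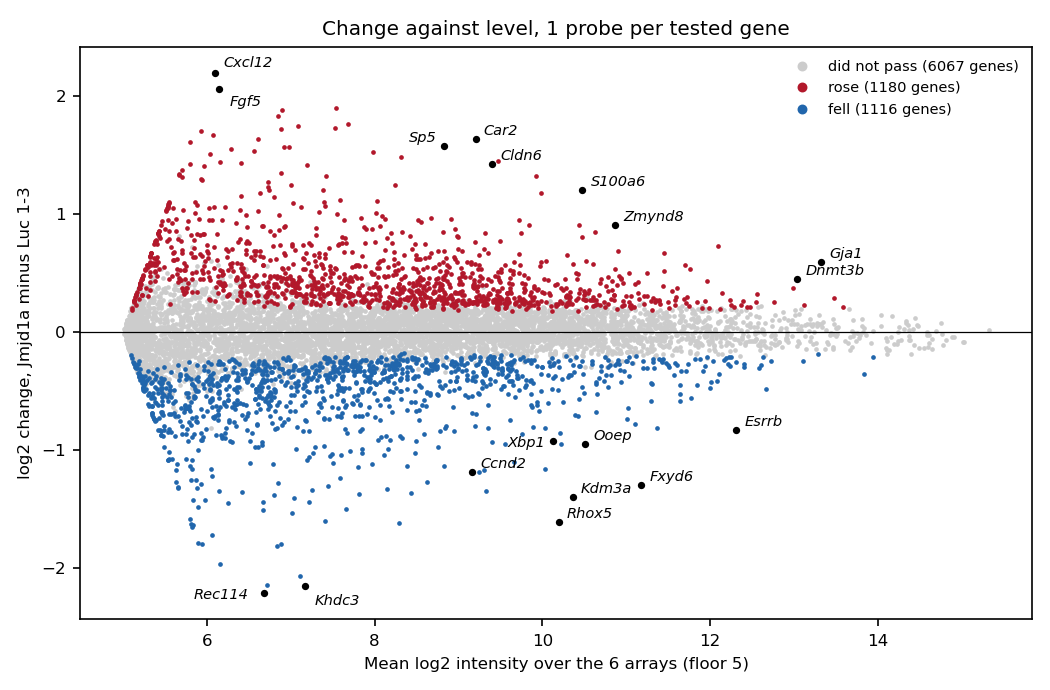
Each point is 1 tested gene, with its mean log2 intensity over the 6 arrays on the x axis and its log2 change, Jmjd1a minus Luc replicates 1 to 3, on the y axis. Red points rose, blue points fell and grey points did not pass, and the widest changes lie among genes of low intensity, with Cxcl12 at 2.20 and Rec114 at -2.21.

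The 15 largest falls were led by Rec114, Khdc3 and Oas1g. Rec114, needed for the DNA breaks that start meiotic recombination, read 219, 217 and 229.9 on the Luc arrays and 47.8, 43.5 and 52.6 on the Jmjd1a arrays. That is a log2 change of -2.21 ± 0.08 (adjusted p = 2.59e-05), with no Jmjd1a array near a Luc array. Khdc3, a subunit of the maternal complex beneath the oocyte membrane that ES cells also express, read 292, 328 and 289.5 in Luc and 68.8, 67.3 and 68.0 in Jmjd1a. Its change was -2.15 ± 0.07 (adjusted p = 2.59e-05), and the 3 Jmjd1a values lay closer together than the Luc values. Ooep, which encodes another subunit of that complex, fell by 0.95 ± 0.07 on the log2 scale from a much brighter signal, 2032 ± 86.2 to 1051 ± 58.8 (SD, n = 3 each; adjusted p = 0.000165).

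Tcl1, a coactivator of the kinase Akt, read 86.8, 95.6 and 124 on the Luc arrays and 22.0, 14.1 and 20.5 on the Jmjd1a arrays, all 3 of which lie under the floor. Its level was therefore at least 3.15-fold lower (adjusted p = 0.000190). Since values at the floor have no spread, the SE and p of such genes do not measure the spread of that group. The meiotic kinase gene Aurkc read 100.1, 98.0 and 104 in Luc and 17.4, 16.3 and 33.5 in Jmjd1a, where 1 of 3 arrays was above the floor, a fitted change of -1.63 ± 0.06 (adjusted p = 2.59e-05). Other members of the 15 largest falls included Oas1g (-2.15 ± 0.09), one of a family of close gene copies for 2′-5′ oligoadenylate synthetases, Acat3 (-1.80 ± 0.09), an acetyl-CoA acetyltransferase, and Fam78a (-1.72 ± 0.10). The endocytic receptor Cubn (-1.79 ± 0.13), the proteoglycan Srgn (-1.62 ± 0.07) and Aire (-1.61 ± 0.09), the regulator of tissue antigens in the thymus, were also among them. The arginine methyltransferase gene Prmt8 was at least 3.45-fold lower and Nostrin, a regulator of nitric oxide synthase trafficking, at least 3.08-fold lower. The X-linked homeobox gene Rhox5 was the brightest of the 15, at 2133, 2157 and 1864 in Luc and 696, 646 and 669 in Jmjd1a, a change of -1.61 ± 0.08 (adjusted p = 3.32e-05). Adjusted p of these 15 genes ran from 2.59e-05 to 0.000213, the latter for the myosin gene Myo1f (-1.97 ± 0.15).

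The largest rise was that of Cxcl12, the chemokine ligand of the receptor Cxcr4. It read 31.3, 19.4 and 28.7 on the Luc arrays, all under the floor, and 154, 141 and 145 on the Jmjd1a arrays, so that it was at least 4.59-fold higher (adjusted p = 2.29e-05). Cxcr4 itself, a low signal, fell by 0.37 ± 0.06 on the log2 scale, from 86.5 ± 3.54 to 66.9 ± 1.12 (adjusted p = 0.00449). Fgf5, the growth factor that marks the epiblast after implantation, read 36.7, 28.5 and 35.3 in Luc, with 2 of 3 arrays above the floor, and 142, 148 and 144 in Jmjd1a. The fitted change was 2.06 ± 0.07 (adjusted p = 2.59e-05), and the groups were far apart.

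The guidance ligand Efna5 read 54.9, 65.4 and 64.1 on the Luc arrays and 200.2, 221 and 234 on the Jmjd1a arrays, a change of 1.83 ± 0.09 (adjusted p = 4.31e-05). Car2, a cytosolic carbonic anhydrase, read 319, 329 and 357 in Luc and 1001, 1060.3 and 1058 in Jmjd1a, a change of 1.64 ± 0.07 (adjusted p = 2.81e-05). Sp5, a zinc finger factor and direct target of Wnt signalling, read 238, 281 and 273 in Luc and 802, 715 and 844 in Jmjd1a, a change of 1.58 ± 0.09 (adjusted p = 7.82e-05). In these 3 genes the lowest Jmjd1a array lay well above the highest Luc array. The choice of the 15 largest rises, as of the falls, required a standard gene name and groups that did not overlap. The remaining large rises included the membrane-binding annexin Anxa3 (1.77 ± 0.08), the sodium-iodide transporter Slc5a5 (1.75 ± 0.09) and Igfbp3 (1.73 ± 0.08), which binds insulin-like growth factors. Hs6st2, a 6-O-sulfotransferase of heparan sulfate, rose by 1.72 ± 0.09, the extracellular chaperone Clu by 1.71 ± 0.11 and the G protein subunit gene Gng12 by 1.64 ± 0.09. Sfn, which encodes the epithelial 14-3-3 protein sigma, was at least 3.05-fold higher. The 15 largest rises, with Fndc3c1 (1.90), Mfap3l (1.88) and Fam171b (1.67) making up the rest, had adjusted p between 2.29e-05 and 0.000230.

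**Figure D2:**
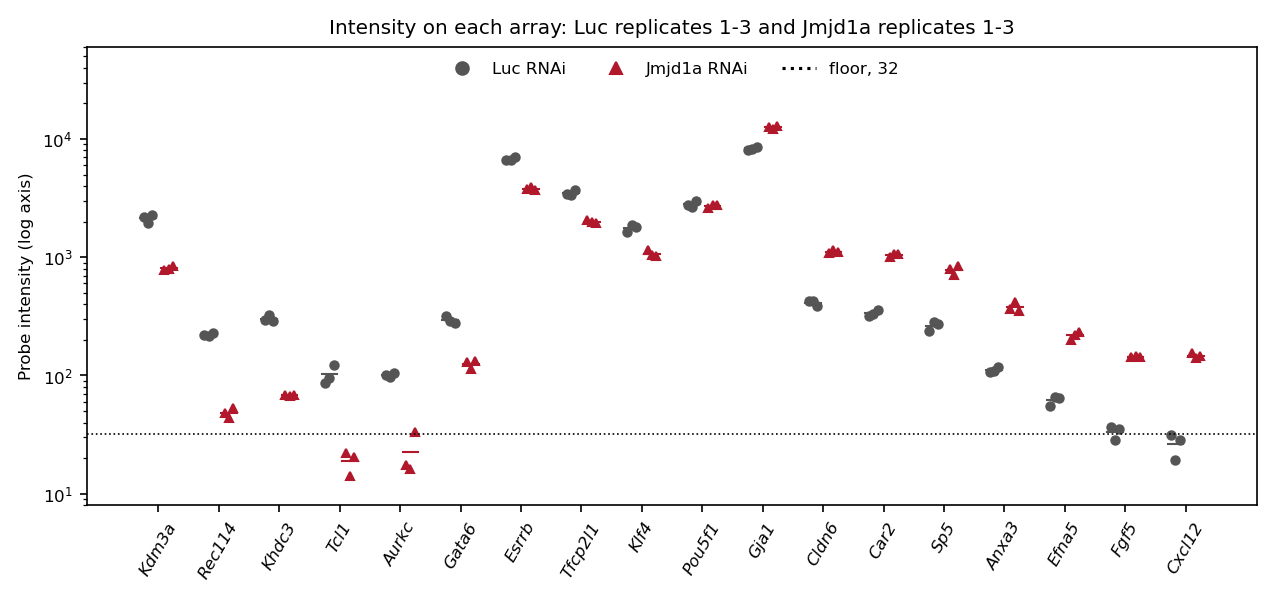
Intensity of 18 genes on each of the 6 arrays, on a log axis, with grey circles for Luc replicates 1 to 3, red triangles for the Jmjd1a arrays, short lines for group means and a dotted line at the floor of 32. Pou5f1 is the gene whose groups overlap, while Tcl1 falls to below the floor in Jmjd1a and Cxcl12 rises from below it.

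Promoters of the falling genes were poorer in CpG dinucleotides than those of other tested genes. RefSeq promoter windows of 300 bases (250 before and 50 after the start, assembly GRCm38.p6) were available for 6884 of the 8363 tested genes. Only the first start listed for a gene was used, and whether ES cells use that start was not examined. The ratio of observed to expected CpG was below 0.5 in 39 of 68 genes that fell at least 2-fold (57.4%), in 27.2% of all genes that fell, in 16.6% of those that rose and in 14% of those that did not pass. Among genes that did not pass and whose mean log2 level lay between 5.88 and 7.73, the middle range of the 2-fold falls, 14.4% had such promoters. Median ratios were 0.44 for the 2-fold falls, 0.77 for the rises and 0.80 for genes that did not pass. Of the 77 genes that rose at least 2-fold, 61 had a window (79.2%), and 20 of these 61 (32.8%) lay below 0.5, with a median ratio of 0.68. That coverage is under the 80% set for such checks, while the 2-fold falls had 81%. The check is therefore void for the 2-fold rises, and a contrast between strong falls and strong rises is not drawn. The 150 bases before the start, with each CpG in capitals and read 5′ to 3′ on the gene's strand, show how far single genes differ: 3 of the deepest falls come first and the 2 largest rises last.
Khdc3, chr9:73102248-73102397, plus strand: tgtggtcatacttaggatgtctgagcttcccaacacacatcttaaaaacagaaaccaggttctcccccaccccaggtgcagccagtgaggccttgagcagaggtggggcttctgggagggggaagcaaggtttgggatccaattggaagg
Tcl1, chr12:105222738-105222887, minus strand: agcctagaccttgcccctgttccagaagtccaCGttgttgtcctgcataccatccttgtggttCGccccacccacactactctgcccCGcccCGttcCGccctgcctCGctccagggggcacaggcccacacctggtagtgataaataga
Rec114, chr9:58741560-58741709, minus strand: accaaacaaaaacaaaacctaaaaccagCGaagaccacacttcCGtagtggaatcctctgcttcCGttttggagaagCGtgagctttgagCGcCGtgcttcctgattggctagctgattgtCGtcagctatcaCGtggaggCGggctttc
Fgf5, chr5:98254034-98254183, plus strand: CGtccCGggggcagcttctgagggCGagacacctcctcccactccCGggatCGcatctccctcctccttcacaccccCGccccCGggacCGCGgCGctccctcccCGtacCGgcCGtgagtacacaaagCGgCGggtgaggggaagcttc
Cxcl12, chr6:117168385-117168534, plus strand: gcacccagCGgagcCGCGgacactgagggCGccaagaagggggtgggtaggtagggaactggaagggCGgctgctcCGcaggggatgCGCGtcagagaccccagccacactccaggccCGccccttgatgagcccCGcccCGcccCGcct
The Khdc3 stretch holds 0 CpG, that of Tcl1 6, that of Fgf5 15 and that of Cxcl12 12. The printed genes were picked singly and do not stand for the falls or the rises. Of the 2-fold rises with a window, 32.8% also lay below 0.5, above the 14% of genes that did not pass. A raised share was therefore not seen in the falls alone. Rec114, with 9 in the printed stretch and a ratio of 0.71 over its whole window, fell most, and its window is not CpG-poor by that ratio. Of 9 short motifs searched in the windows, CACCTG on either strand, the E-box read by Zeb repressors among others, was in 22.2% of genes that rose, 16.9% of those that fell, 15.9% of those that did not pass and 20% of all promoters in the table. For the other 8, whether on both strands or as TATAAA on the plus strand, the shares of genes that rose or fell lay within 3.9 percentage points of those that did not pass.

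**Figure D3:**
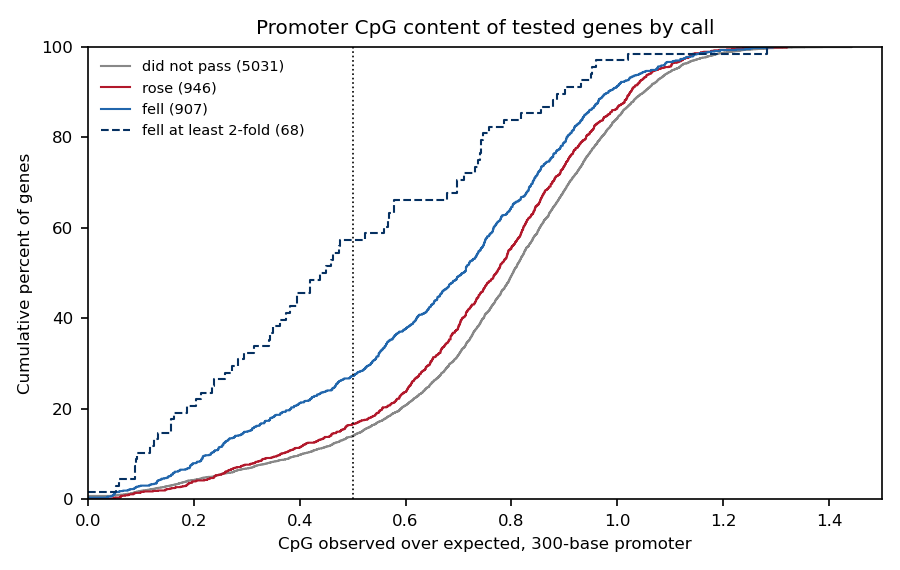
Cumulative percent of genes (y axis) by the ratio of observed to expected CpG in their 300-base promoter window (x axis), with grey for genes that did not pass, red for rose, blue for fell and dashed dark blue for fell at least 2-fold. The dotted line marks 0.5, where the dashed curve stands at 57.4% and the grey one at 14%. Genes that rose at least 2-fold have no curve of their own.

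Regulators of naive pluripotency were mostly lower. Of 31 tested genes in that list 20 fell, 10 did not pass and 1 rose, with a median log2 change of -0.33 against 0.00 over all tested genes. Here and in the lists below, the share of all tested genes was 14.1% for rises and 13.3% for falls, the lists were written with earlier results of these data known, and they were given no test as a group. Esrrb, a nuclear receptor at the centre of the naive network, read 6613, 6605 and 7111 on the Luc arrays and 3787, 3943 and 3708 on the Jmjd1a arrays, a change of -0.83 ± 0.06 (adjusted p = 0.000189). Tfcp2l1, a partner of Esrrb in that network, read 3403, 3363 and 3702 in Luc and 2051, 1972 and 1937 in Jmjd1a, a change of -0.81 ± 0.06 (adjusted p = 0.000234). Tbx3 fell from 930.5 ± 4.26 to 489 ± 14.1, or by 0.93 ± 0.06 on the log2 scale (adjusted p = 8.42e-05). In each of these the groups stood clearly apart, as they did on nearly all called probes.

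The Krüppel-like factors did not move as 1 group. Klf4 read 1636, 1864 and 1793 in Luc and 1157, 1037 and 1034 in Jmjd1a (-0.71 ± 0.08, adjusted p = 0.000920), and Klf2 fell by 0.68 ± 0.07 on the log2 scale (adjusted p = 0.000902). Klf5, at 2303 ± 24.9 and 2213 ± 153, did not pass (-0.06 ± 0.07, adjusted p = 0.563). Smaller falls were those of Zfp42 (-0.45 ± 0.07, adjusted p = 0.00399), Nr5a2 (-0.41 ± 0.08, adjusted p = 0.0129) and Nanog, which read 5951, 6078 and 5983 in Luc and 4816, 4766 and 5118 in Jmjd1a (-0.29 ± 0.06, adjusted p = 0.0107). Pou5f1, the core pluripotency factor, read 2792, 2653 and 2974 in Luc and 2633, 2746 and 2780 in Jmjd1a. Its groups overlapped and it did not pass (-0.04 ± 0.07, adjusted p = 0.660), nor did its partner Sox2 (-0.16 ± 0.07, adjusted p = 0.120). The 1 gene that rose was Myc, a call that was lost without Jmjd1a replicate 2 or 3. Among 19 genes of the LIF and Stat3 pathway 8 fell, or 5 without Jmjd1a replicate 1, including the feedback inhibitor Socs3 (-0.52 ± 0.07, adjusted p = 0.00172), and 2 rose, including the kinase gene Pim2 (1.45 ± 0.08, adjusted p = 6.53e-05).

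Markers of the formative and primed epiblast moved the other way, with 16 of 23 higher, 3 lower and a median of 0.51. After Fgf5 the largest rises were those of the activin antagonist Fst (1.53 ± 0.10, adjusted p = 0.000143), Pim2, and Eomes, a T-box factor of primitive streak and trophoblast that read 50.9, 51.3 and 52.4 in Luc and 118, 102 and 102 in Jmjd1a (1.06 ± 0.07, adjusted p = 0.000147). Pou3f1, a POU factor of the epiblast, read 340.1, 367 and 400.1 in Luc and 679, 626 and 720.1 in Jmjd1a, a change of 0.87 ± 0.09 (adjusted p = 0.000557). The de novo DNA methyltransferase gene Dnmt3b rose from the high level of 7180.1 ± 97.6 to 9839 ± 652 (0.45 ± 0.07, adjusted p = 0.00334). Otx2, another factor of that state, did not pass, at 448 ± 20.3 and 445 ± 14.0 (-0.01 ± 0.06, adjusted p = 0.928). Among the falls were the adhesion molecule Ncam1 (-0.97, adjusted p = 0.000453) and the Ets factor Etv5 (-0.33).

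Markers of primitive and visceral endoderm were lower in 13 of 20 tested genes, with a median of -0.90. The list held 31 genes, and Sox17, Sox7, Foxa2, Afp and Ttr were among those not tested. Gata6, the factor that specifies primitive endoderm, read 319, 288 and 280.0 on the Luc arrays and 130.0, 113 and 133 on the Jmjd1a arrays, a change of -1.24 ± 0.09 (adjusted p = 0.000160). Col4a1 and Col4a2, the paired collagen chains of basement membrane, fell by 1.12 ± 0.07 and 1.14 ± 0.07 on the log2 scale, and the endocytic adaptor Dab2 by 1.17 ± 0.08 (adjusted p = 0.000114, 9.18e-05 and 0.000165). Foxq1 fell from 219 ± 7.58 to 75.9 ± 3.42 (-1.53 ± 0.06), the cubilin partner Amn by 0.99 ± 0.08 and the receptor Pdgfra by 0.93 ± 0.08 on the log2 scale. In these genes, as in Cubn and Srgn above, every Jmjd1a array lay below every Luc array. The groups were separate on 3570 of the 3571 called probes, so this adds nothing to the calls. Gata4 did not pass (-0.09 ± 0.18, adjusted p = 0.728), nor did Hnf4a (-0.44 ± 0.14, adjusted p = 0.0629), and Fst, also on this list, rose. The second rise, of Lamb1, was lost without Luc replicate 1 or 2 or any 1 Jmjd1a array. In a population of cells, fewer cells of a type and less RNA per cell cannot be told apart.

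In the trophectoderm list 6 of 13 genes rose and 1 fell. Cdx2, the trophectoderm and posterior patterning factor, read 67.6, 73.6 and 70.4 in Luc and 161, 166 and 162 in Jmjd1a (1.21 ± 0.06, adjusted p = 3.80e-05). The simple-epithelium keratins Krt8 (0.97 ± 0.07), Krt18 (0.73 ± 0.09) and Krt7 (0.83 ± 0.08) rose as well. Gata3, Tfap2a and Tfap2c, regulators of trophoblast, did not pass. In the mesoderm list 3 of 9 rose, with the homeobox gene Msx1 at least 2.53-fold higher, and 2 fell, among them Bmp4 (-1.01 ± 0.08, adjusted p = 0.000193). Of 10 neural progenitor markers 2 rose and 5 fell, or 3 without Luc replicate 2 or 3 or Jmjd1a replicate 3, with the eye and forebrain factor Pax6 at -1.06 ± 0.08 (adjusted p = 0.000242).

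Many genes typical of epithelial cells rose. A list of 56 such genes, chosen after values of some of them were seen and therefore a description only, had 40 tested members, of which 29 rose, 12 of them at least 2-fold, 1 fell and 10 did not pass, with a median of 0.74. The tight junction gene Cldn6 read 429.5, 425 and 385 on the Luc arrays and 1083, 1150.0 and 1101 on the Jmjd1a arrays, a change of 1.43 ± 0.07 (adjusted p = 3.32e-05). Esrp1, which directs epithelial splicing, read 173, 193 and 169.9 in Luc and 395, 385 and 376 in Jmjd1a (1.11 ± 0.07, adjusted p = 0.000101), and its paralogue Esrp2 rose by 0.76 ± 0.11 (adjusted p = 0.00287). Grhl2, a transcription factor of epithelia, rose by 0.67 (adjusted p = 0.000463). None of these 4 genes had overlapping groups, as held for nearly all called probes.

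The trafficking genes Rab25 (1.56 ± 0.11) and Ap1m2 (1.57 ± 0.11), the membrane protease St14 (1.35 ± 0.11), the junction protein Marveld3 (1.30 ± 0.10) and the plakins Ppl (1.51 ± 0.14) and Eppk1 (1.41 ± 0.12) also rose. All 6 started from low mean intensities of 38.6 to 74.8 in Luc. Zeb1, a repressor of epithelial genes, read 111, 115 and 112 in Luc and 48.8, 51.8 and 34.3 in Jmjd1a, a change of -1.35 ± 0.15 (adjusted p = 0.000924). Among 9 tested mesenchymal genes, chosen in the same way, 5 fell, 0 rose and 4 did not pass. Besides Zeb1 the falls were Ncam1, Pdgfra, the matrix protein Fn1 (-0.55) and Thy1 (-0.77). Ncam1 and Pdgfra are also counted among the falls of the formative and endoderm lists, so the lists are not separate sets of genes. Cdh1, the epithelial cadherin, was higher by 0.30 (adjusted p = 0.0319), a call lost without Luc replicate 1 or 3 or any 1 Jmjd1a array (adjusted p up to 0.0876). Tjp1 and Jup did not pass (0.16 and -0.14).

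In the junction list 12 of 31 genes rose and 5 fell. Gja1, the gap junction protein connexin, was among the brightest changed genes, at 8082, 8244 and 8635 in Luc and 12544, 12214 and 12885 in Jmjd1a (0.59 ± 0.06, adjusted p = 0.000622). The laminin receptor subunit Itga3 rose by 0.97 ± 0.06 (adjusted p = 8.51e-05), and Jam2, a junction molecule of ES cells, fell by 0.74 ± 0.06 on the log2 scale (adjusted p = 0.000262). Genes of intermediate filaments and the actin cytoskeleton were higher in 22 of 47, or 15 to 17 with any 1 array left out. They included the calcium-binding S100a6 (1.20 ± 0.07), Rhob (1.01 ± 0.10), a small GTPase, and the tropomyosins Tpm1 (0.62) and Tpm2 (0.58). Of 25 targets of YAP and SRF, which respond to tension and growth factors, 12 rose, or 7 without Jmjd1a replicate 1, and 2 fell. Ccn2, the connective tissue growth factor, read 610.5, 667 and 563 in Luc and 1604, 1593 and 1404 in Jmjd1a (1.32 ± 0.09, adjusted p = 0.000126), and the focal adhesion gene Zyx rose by 1.18 ± 0.06 (adjusted p = 3.32e-05). Of 28 extracellular matrix genes 8 fell and 4 rose, or 2 without Luc replicate 2.

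Within each signalling pathway some genes rose and others fell. For FGF and MAPK signalling 9 of 31 genes rose and 6 fell. The phosphatases that dampen ERK were among the rises, with Dusp4 at 0.96 and Dusp6 at 0.50 ± 0.08 (adjusted p = 0.00459 for Dusp6), whereas the ligand Fgf4 read 63.8, 48.2 and 59.4 in Luc and 41.6, 25.3 and 21.1 in Jmjd1a (-0.70 ± 0.14, adjusted p = 0.0111). The inhibitors Spry1, Spry2 and Spry4 did not pass. In the Wnt list 9 of 27 rose and 4 fell; beside Sp5 and Cdx2, the ligand Wnt9a (1.07), the receptor Fzd6 (0.95) and the effector Lef1 (0.67 ± 0.13, adjusted p = 0.00960) were higher, and the secreted inhibitors Sfrp1 (-0.72) and Notum (-0.45) lower. Axin2 and Ctnnb1 did not pass.

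Of 28 genes of the Nodal, activin, TGF-beta and BMP pathways 7 rose and 5 fell. The ligand genes Bmp4 and Inhbb (-1.31 ± 0.09, adjusted p = 0.000126) fell. The BMP-responsive inhibitors Id1 (0.57 ± 0.05), Id2 (0.62 ± 0.07) and Id3 (0.62 ± 0.08) rose, with Id1 at 499, 489 and 510.2 in Luc and 735, 743 and 738 in Jmjd1a. The Nodal antagonist Lefty1 rose by 0.40 ± 0.05 (adjusted p = 0.00225), and Nodal itself did not pass. Of 21 Notch and Hedgehog genes 6 rose and 5 fell, the receptor Notch4 most, from 443, 434 and 476 to 175, 187 and 177 (-1.33 ± 0.07, adjusted p = 3.70e-05). The Hedgehog effector Gli2 fell by 0.81 ± 0.06 on the log2 scale and its relative Gli3 rose by 0.75. Ephrin, semaphorin and netrin guidance genes were equally split, 6 of 24 each way, with the receptor Epha1 at 1.43 ± 0.10 beside Efna5.

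Targets of p53 and genes of apoptosis were higher in 15 of 32, with 1 lower. Mdm2, the p53 ubiquitin ligase and p53 target, read 2732, 2704 and 2739 on the Luc arrays and 4067, 4022 and 4052 on the Jmjd1a arrays, a change of 0.57 ± 0.05 (adjusted p = 0.000463). Perp, a p53 target that is also a desmosome protein, rose by 0.99 ± 0.10, Trp53inp1 by 0.54 ± 0.06, Ccng1 by 0.53 ± 0.08 and the BH3-only gene Pmaip1 by 0.83 ± 0.14 (adjusted p = 0.000568, 0.000884, 0.00353 and 0.00507). Cdkn1a, the cell-cycle inhibitor most often used as a p53 readout, read 374, 415 and 404 in Luc and 382, 393 and 385 in Jmjd1a and did not pass (-0.04 ± 0.06, adjusted p = 0.688), nor did the apoptosis gene Bbc3 (0.10 ± 0.08, adjusted p = 0.433). The 1 gene that fell was Ephx1, an epoxide hydrolase, joined by a second without Jmjd1a replicate 1 or 3.

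The D-type cyclins, which carry cells through G1, were lower, all 3 of them. Ccnd2 read 848, 792 and 969.8 in Luc and 383, 386 and 370.0 in Jmjd1a (-1.19 ± 0.08, adjusted p = 0.000160), while Ccnd3 fell by 0.72 ± 0.08 and Ccnd1 by 0.41 ± 0.06 on the log2 scale. Across the list of G1/S and DNA replication, 12 of 53 genes fell, E2f2 among them (-0.67 ± 0.09, adjusted p = 0.00242), and 4 rose, or 2 without Jmjd1a replicate 1 or 3, including the retinoblastoma gene Rb1 (0.61 ± 0.11, adjusted p = 0.00739). In the G2/M list 40 of 44 genes did not pass. Of the 2 that fell 1 was the meiotic kinase gene Aurkc, and the count was 1 to 3 without Luc replicate 2 or 3 or any 1 Jmjd1a array.

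Of 64 germline and meiosis genes listed, 59 were on the array and 21 were tested, so the counts leave out most of the list. Among the tested genes 1 was higher, in a call that held without Luc replicate 3 only. Lower were 12 of 21, a count that was 12 with any 1 array left out. Beside Rec114, Aurkc and Aire they included the egg coat gene Zp3 (-1.16 ± 0.17, adjusted p = 0.00270), the receptor Kit, at 595, 616 and 611 in Luc and 306, 318 and 305 in Jmjd1a (-0.97 ± 0.06, adjusted p = 7.53e-05), and the piRNA pathway gene Tdrd12 (-0.92 ± 0.07, adjusted p = 0.000165). Dmc1, the meiotic recombinase, and Dppa3 did not pass. A gene that falls to the floor can pass the filter through the Luc arrays alone, and Aurkc had 1 of 3 Jmjd1a arrays above the floor. Imprinted genes, expressed from 1 parental copy, were higher in 13 of 28 with 1 lower, and a second lower without Luc replicate 3 or Jmjd1a replicate 3. Grb10 read 198, 199 and 197 in Luc and 323, 314 and 371 in Jmjd1a (0.76 ± 0.08, adjusted p = 0.000644). The growth factor Igf2 (0.60 ± 0.07), the Notch-like ligand Dlk1 (0.68 ± 0.07) and Ndn (0.59 ± 0.06), a gene of the Prader-Willi region, rose too, and Ddc fell (-0.89 ± 0.07).

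In the 4 lists of chromatin regulators, 14.7% to 33.3% of the tested genes were called, against 27.5% of all tested genes. Of 18 genes listed as histone lysine demethylases and Jumonji-domain relatives 4 fell. They were Kdm3a itself, the relative Jmjd8 (-0.72 ± 0.13), the H3K9 demethylase gene Phf8 (-0.51 ± 0.09) and Kdm5b, whose call was lost without Jmjd1a replicate 1 or 2. The relatives Riox2 and Jmjd6 rose by 0.33 ± 0.05 and by 0.21, and the call of Jmjd6 was lost with any 1 array left out. Kdm4c read 307, 329 and 312 in Luc and 334, 294 and 333 in Jmjd1a and did not pass (0.02 ± 0.07, adjusted p = 0.887), nor did the Kdm3a relative Jmjd1c (0.16 ± 0.16, adjusted p = 0.502). Among 23 genes of H3K9 methylation and silencing, the methyltransferases Ehmt1, Ehmt2, Setdb1 and Suv39h2 did not pass. The Setdb1 partner Atf7ip (0.36 ± 0.06, adjusted p = 0.00404) and the X inactivation protein Smchd1 (0.41 ± 0.06, adjusted p = 0.00338) rose together with Dnmt3b, and 3 genes fell, or 1 without Luc replicate 1 or Jmjd1a replicate 2. In the Polycomb and Trithorax list, the lowest of the 4 shares, 29 of 34 genes did not pass. Among 52 genes of acetylation and remodelling, 6 rose and 8 fell, or 4 without Luc replicate 2 or Jmjd1a replicate 1, with the chromatin remodelling subunits Baz1a at 0.80 ± 0.06 and Smarcd3 at -1.29 ± 0.13 as the widest changes.

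**Figure D4:**
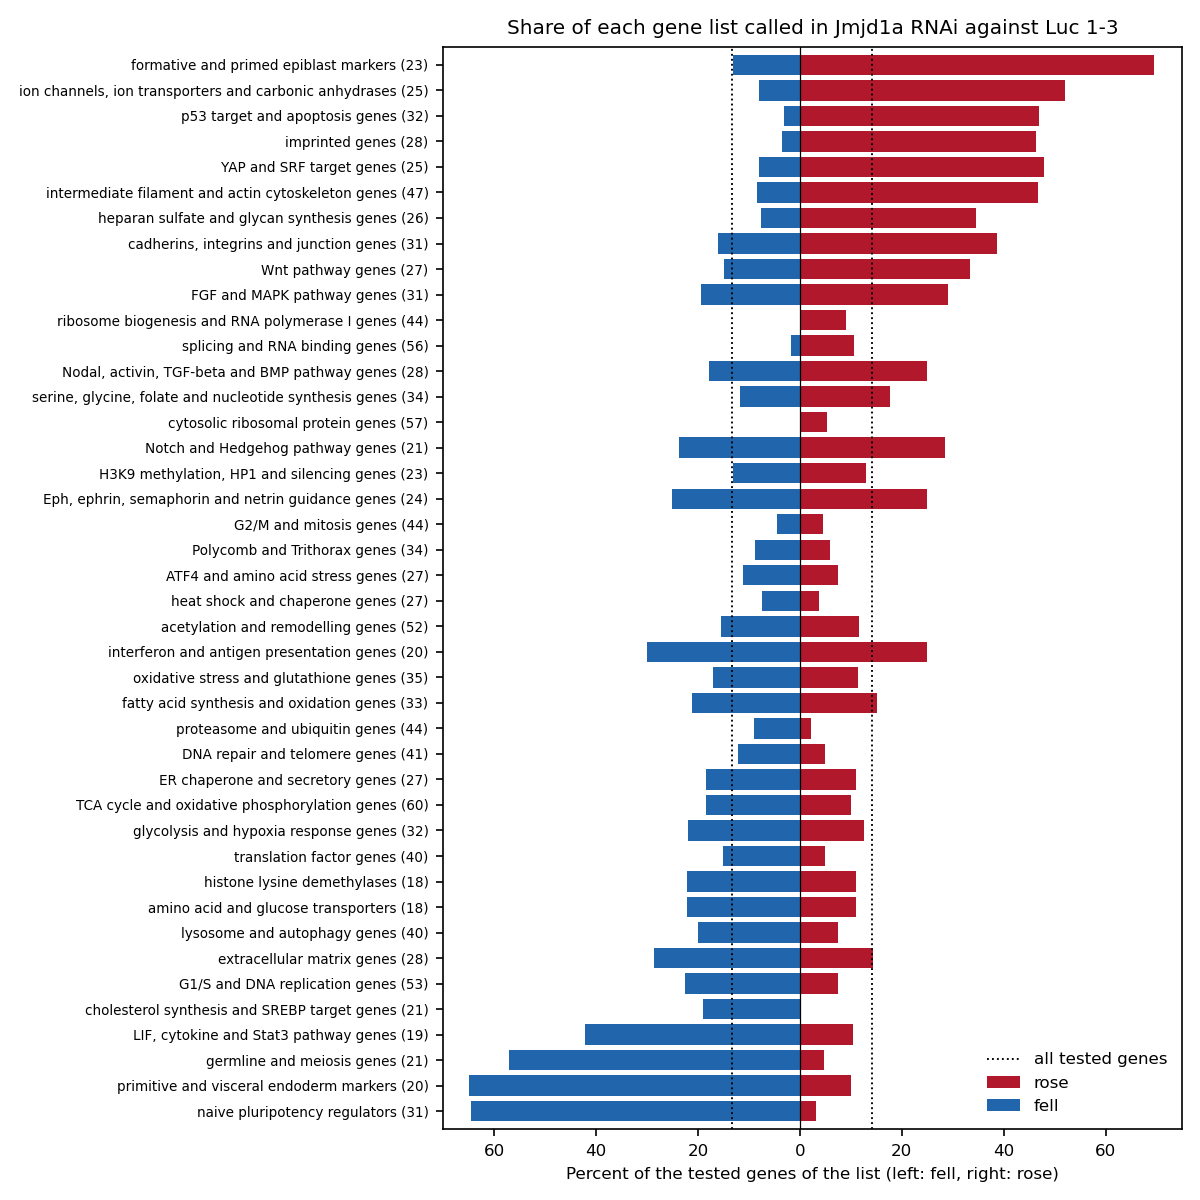
Percent of the tested genes of each list that rose (red, right) or fell (blue, left), for lists with at least 18 tested genes, whose number is in brackets. Dotted lines stand at the shares of all tested genes, 14.1% and 13.3%, and the naive, endoderm and germline lists extend far to the left and the formative list far to the right.

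In the housekeeping, stress and metabolic lists described in this paragraph, the share of genes called ran from 5.26% for ribosomal protein genes to 34.4% for glycolysis, beside the same 27.5%. Higher shares were those of fatty acid synthesis and oxidation (36.4%) and of ion channels, ion transporters and carbonic anhydrases (60%). Of 57 ribosomal protein genes 3 rose and 0 fell, of 56 splicing genes 6 rose, led by Esrp1, the muscleblind gene Mbnl1 (1.00 ± 0.07) and Esrp2, and of 60 genes of the TCA cycle and oxidative phosphorylation 6 rose and 11 fell. The last 2 counts were 0 to 3 and 4 to 8 with any 1 array left out. Of the glycolysis list 7 of 32 genes fell and 4 rose, or 2 without Luc replicate 1 or 2 or Jmjd1a replicate 1 or 2, with the phosphofructokinase Pfkp at -1.02 ± 0.08, the lactate dehydrogenase Ldhb at -0.75 ± 0.07 and the hexokinase Hk1 at -0.67 ± 0.06, while Gapdh, Pgk1, Tpi1 and Pkm did not pass. Of 27 heat shock genes 24 did not pass, and of 27 ATF4 targets 22 did not. Xbp1, the transcription factor of the unfolded protein response, read 1513, 1553 and 1555 in Luc and 808, 773 and 860.5 in Jmjd1a (-0.92 ± 0.06, adjusted p = 0.000146), whereas the ER chaperone genes Hspa5 and Pdia4 did not pass.

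Slc5a5, Slc40a1 and Car2 led the rises among genes of ion transport. Of 25 ion channels, transporters and carbonic anhydrases 13 rose and 2 fell, or 1 without Luc replicate 1 or 3 or Jmjd1a replicate 3. Slc40a1, which encodes the iron exporter ferroportin, read 142, 152 and 151 in Luc and 399.7, 436 and 449.7 in Jmjd1a (1.53 ± 0.07, adjusted p = 3.01e-05), and the potassium channel Kcnk1 (1.20 ± 0.09) and Car3 (1.15 ± 0.09) rose beside Car2 and Slc5a5. Of 26 genes of heparan sulfate and glycan synthesis 9 rose and 2 fell, with the hyaluronan synthase Has2 at 0.82 ± 0.11 (adjusted p = 0.00216) after Hs6st2. The haem-degrading enzyme Hmox1 rose from 2222 ± 90.2 to 3538 ± 94.1 (0.67 ± 0.06, adjusted p = 0.000409). Interferon and antigen presentation genes went both ways, with 6 of 20 lower and 5 higher, or 3 higher without Luc replicate 1 or 2 or any 1 Jmjd1a array.

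Several of the brightest changed probes belonged to genes of other kinds. Fxyd6, a regulator of the sodium pump, read 3513, 3653 and 3725 in Luc and 1467, 1466 and 1499.6 in Jmjd1a (-1.30 ± 0.06, adjusted p = 2.81e-05). Tex19.1, a guard against retrotransposons in germ and ES cells, fell from 2606 ± 7.93 to 1671 ± 139.9 (-0.64 ± 0.07, adjusted p = 0.00110) and the tubulin Tubb2b from 2889 ± 45.0 to 1684 ± 22.7 (-0.78 ± 0.05). Another tubulin, Tubb6, rose from 3393 ± 37.7 to 5632 ± 297 (0.73 ± 0.06, adjusted p = 0.000321). Zmynd8, a reader of histone marks, read 1418, 1312 and 1346 in Luc and 2675, 2535 and 2440.2 in Jmjd1a (0.91 ± 0.06, adjusted p = 0.000165). Ahcy, which clears the by-product of methylation reactions, rose by 0.60 ± 0.07 and the X-linked ubiquitin ligase Rlim by 0.81 ± 0.07.

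Most listed markers of cells outside the ES lineage were below the floor on all 6 arrays. Of 21 fibroblast markers on the array 12 were below the floor on all 6 arrays, and their summed intensity was 1033 to 1047 in Luc and 869 to 886 in Jmjd1a. Among 17 blood and macrophage markers 14 were below the floor, and the sums of 4807 to 5128 and 3572 to 3698 came almost wholly from Laptm5, at 4808 ± 145 and 3469 ± 50.9, a lysosomal gene (-0.47 ± 0.06, adjusted p = 0.00137). Of 23 markers of muscle, liver and neurons 17 were below the floor, with sums of 378 to 400.2 and 329 to 359. The part of such cells in the falls of fibroblast genes such as Pdgfra and Thy1 was not tested.

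Genes that lie next to each other in the genome changed together at times. By the RefSeq order of GRCm38.p6, 4031 adjacent pairs of protein-coding genes had both members tested. A neighbour of a gene that rose had itself risen in 17% of cases, against 12.6% of all genes in such pairs, and a neighbour of a gene that fell had fallen in 20.4%, against 14%. Both genes rose in 86 pairs and both fell in 115, while in 109 pairs 1 gene rose and the other fell. In 17 pairs both genes changed by at least 1.5-fold the same way, 7 upward and 10 downward. Pairs that changed by as much in opposite ways were not counted. Tfcp2l1, Gli2 and Inhbb form a run of 3 that fell, and Rab27a (-0.72 ± 0.07) fell next to Khdc3. Pdgfra and Kit, Col4a1 and Col4a2, and Tex19.2 and Tex19.1 were further falling pairs, while Krt8 and Krt18, Car3 and Car2, Zyx and Epha1, and Fgfbp1 and Prom1 rose. Shared probe sequence between close relatives such as the Tex19 pair was not examined.

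The series holds a second H3K9 demethylase knockdown, of Jmjd2c (Kdm4c), with Luc replicates 4 to 6 beside it, and the 2 changes share no control array. On the same probes limma called 5646 (40.2%) in Jmjd2c, 22.8% higher and 17.4% lower. Of the 233 probes changed at least 2-fold by Jmjd1a RNAi, 139 (59.7%) were called the same way in Jmjd2c and 21 (9.01%) the opposite way. Of those that rose, 58.9% were also higher and 5.36% lower in Jmjd2c, and of those that fell, 60.3% were also lower and 12.4% higher. The difference between the changes, tested in a fit of all 12 arrays, was called for 166 of them (71.2%) and for 3523 of all probes (25.1%). Of the 20 endoderm markers 13 rose with Jmjd2c, against 24.7% of all genes, and 4 fell, against 18.5%. In the test of the difference 15 of the 20 were lower with Jmjd1a than with Jmjd2c, against 14.1% of all genes, and 2, Apoe and Fst, were higher, against 12.3%. Among those that fell in both, Nid1 changed by -0.88 with Jmjd1a and -0.39 with Jmjd2c and Pga5 by -1.31 and -0.88. The 4 largest differences were those of Cubn, Foxq1, Srgn and Gata6. Gata6 changed by -1.24 with Jmjd1a and by 2.11 with Jmjd2c (difference adjusted p = 9.92e-09), Foxq1 by -1.53 and 2.75, Cubn by -1.79 and 2.84 and Srgn by -1.62 and 1.93.

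Of the 31 naive genes, 12 fell and 3 rose with Jmjd2c, and the difference was called for 17, 14 of them lower with Jmjd1a and 3 higher, while 14 did not pass. Over all genes 26.4% of differences were called. Esrrb changed by -0.83 with Jmjd1a and -0.09 with Jmjd2c (difference adjusted p = 7.72e-05), Tfcp2l1 by -0.81 and -0.19 (0.00164) and Klf4 by -0.71 and -0.05 (0.000917). Nanog, at -0.29 and -0.40, did not differ by that test (0.422). Cldn6 changed by 1.43 and 0.01 (1.22e-06), and 26 of the 40 epithelial genes were higher with Jmjd1a than with Jmjd2c, a count that is not independent of the way the list was chosen. For Cxcl12 and Fgf5 all 6 arrays of the Jmjd2c comparison were at the floor. Some other lists leaned the same way in both knockdowns. With Jmjd2c 13 of 23 formative markers rose and 0 fell, and 11 of 21 germline genes fell and 1 rose. For 32 p53 and apoptosis genes the rises and falls were 14 and 4. They were 12 and 3 for 25 YAP and SRF targets, and 11 and 3 for 28 imprinted genes. Over all genes 24.7% rose and 18.5% fell with Jmjd2c. The difference was called for 15, 9, 11, 10 and 8 genes of these lists in that order. Rec114 changed by -2.21 and -2.01, Slc5a5 by 1.75 and 1.81 and Car2 by 1.64 and 1.75, and none of these 3 differences passed (adjusted p 0.192, 0.727 and 0.687). Tcl1 and Aurkc fell in both knockdowns, but with Jmjd1a 3 and 2 of their 3 arrays were at the floor, so the sizes of their falls were not compared. A p that misses the threshold does not show that the changes were equal. The arrays of the 2 comparisons differ between their Luc groups, as the correlations above show, and what sets them apart is not given by the labels.

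**Figure D5:**
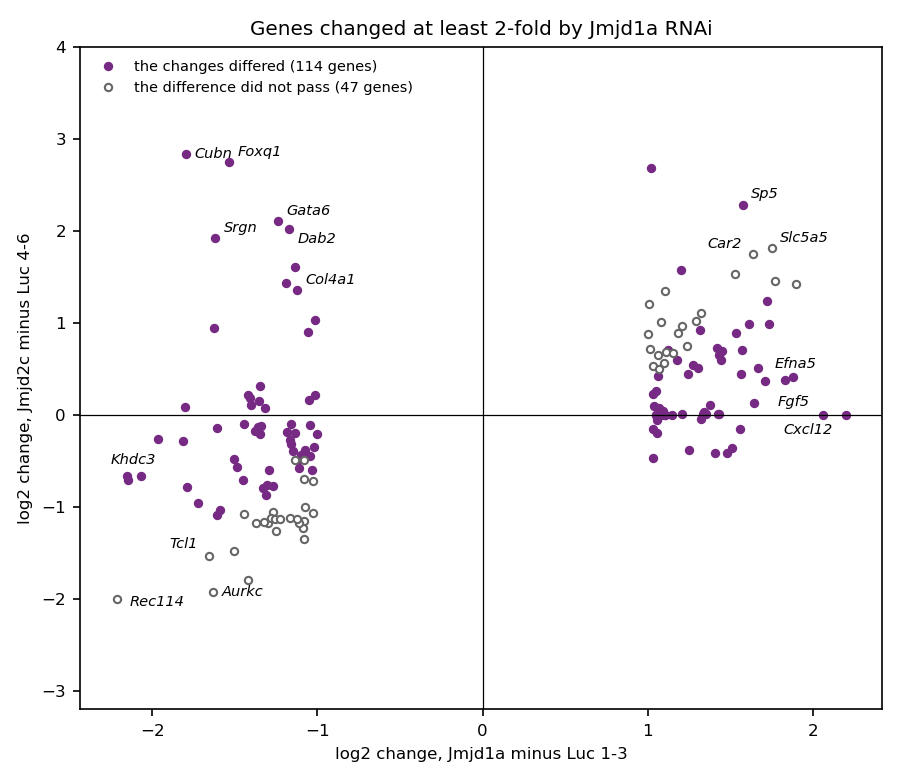
For the 161 genes changed at least 2-fold by Jmjd1a RNAi, the log2 change against Luc replicates 1 to 3 (x axis) and the log2 change of the same gene with Jmjd2c RNAi against Luc replicates 4 to 6 (y axis). Filled points are the 114 genes whose changes differed and open points the 47 whose difference did not pass, with the endoderm genes Gata6, Dab2, Foxq1 and Cubn at the upper left.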

How the data were processed

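The authors deposited 1 linear intensity per probe and array, for 46133 probes. On these 6 arrays 35.1% to 36.8% of values lie below 0, so a background was subtracted; the method, and any scaling of arrays, are not stated in the labels. Values were used as deposited, with a floor of 32 before log2, and means ± SD are of intensities without the floor. Group differences came from limma 3.58.1 (lmFit, eBayes) in R 4.3.3 on the 6 arrays, with 4 residual degrees of freedom and Benjamini-Hochberg adjustment over 14040 probes. Every adjusted p is from limma and two-sided. The difference from Jmjd2c used all 12 arrays in 4 groups.

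Symbols come from the array's probe annotation: 11147 tested probes carry 1 symbol, 3 several and 2890 none. A gene is represented by its probe of highest mean, and names follow RefSeq identifiers. The members and the 51 lists (1350 tested genes) were chosen with earlier results of these data known. The lists held 2129 distinct symbols, of which 1958 were on the array, and counts per list cover tested genes only. Lists share members, with 2285 entries in all. By rule the text names the 15 largest rises and falls (1 of the falls is not reported here), the 10 brightest each way among changes of at least 1.5-fold, up to 4 rises and falls per list and some fixed genes; every other name was chosen after its values were seen, including Klf5, Otx2, Cdkn1a, Bbc3, the epithelial and mesenchymal genes and listed genes that did not pass or had smaller changes. On simulated data the fit recovered 75% of changes of 0.5 and 97.5% of changes of 1 on the log2 scale. Only 200 of 14040 simulated probes were changed in each run, and 6 and 10 calls were false. In the real comparison 25.4% of probes were called, so these shares need not hold for it. The main fit did not pair samples by replicate number. Same-numbered deviations correlated at -0.003 to 0.114 and other pairs at -0.097 to 0.094. With so few arrays this cannot decide whether the samples were paired.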

Additional observations from a re-analysis of the deposited data

How the results depend on the processing

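The Kdm3a fall kept its direction and call under each alternative run (quantile normalization, median centring, floors of 16 and 64, no filter, a filter on all 6 arrays, a replicate block, trend and robust eBayes, 12 arrays, and each array left out). Rises of at least 2-fold numbered 175 probes with a floor of 16 and 59 with a floor of 64. Such falls numbered 63 with a floor of 64 and 78 among probes above 32 on all 6 arrays. That filter removes genes that fell to the floor or rose from it, and the 2-fold rises numbered 76 under it. With no filter, and so 46133 tests, 596 probes were called higher and 489 lower, and 2331 in the difference from Jmjd2c. Leaving out 1 array gave 1276 to 1541 higher and 1179 to 1364 lower. The replicate block gave 1596 higher and 1485 lower, and it ended no call on a Kdm3a probe. Of 343 named genes, 157 kept call and direction under every setting. Kdm4c, which passed in none of them, turned to -0.007 with quantile normalization, -0.003 without Luc replicate 1, -0.014 without Jmjd1a replicate 1 and -0.012 without Jmjd1a replicate 3 (highest 0.077, without Jmjd1a replicate 2); the cause was not tested. Genes near the floor have understated changes.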

Other observations

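In 12 genes different probes were called in opposite directions, against 260 genes with at least 2 called probes that all moved 1 way. The probes of Srr, the serine racemase, changed by -0.94 and 0.57, and those of Lpp, a focal adhesion protein, by 0.88 and -0.35. Srr and Lpp can therefore not be given a single direction from these arrays, and which transcripts the probes detect was not examined.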
